A study of Mus musculus with 8 samples.

Results

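Focal adhesions are the plaques at which integrins in the plasma membrane are tied to actin filaments, and the 9 genes described here encode the proteins that make that tie: the linkers Tln1 (talin 1) and Vcl (vinculin), the scaffold Pxn (paxillin), the actin-regulating pair Zyx (zyxin) and Vasp, the alpha-actinins Actn1 and Actn4, and the filamins Flna and Flnc. They were chosen by name, with earlier results of these data known. All 9 were among the 12528 genes listed in the RNA-seq table and among the 12494 that passed the filter on low values (at least 1 CPM in at least 2 libraries). The cells were immortalized mouse embryonic fibroblasts (MEFs) of littermates that were either WT or Cav1KO, where Cav1KO cells lack caveolin 1, the main coat protein of caveolae. Cells were seeded at low density on fibronectin-coated polyacrylamide hydrogels that were stiff (about 55 kPa) or soft (about 0.2 kPa), and RNA was taken after 24 h. The groups were WT cells on stiff gels (WT stiff), WT cells on soft gels (WT soft), Cav1KO cells on stiff gels (Cav1KO stiff) and Cav1KO cells on soft gels (Cav1KO soft), with 2 libraries each and 8 in all. The labels tie the libraries of a group to no separate lines, embryos or cultures. P-values therefore measure only the spread between these libraries, which may be technical, and the genotype cannot be told apart from any other difference between the cell lines.

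Talin binds the tails of integrins and, when stretched by actomyosin, exposes sites for vinculin, which adds further links to actin. Paxillin is a docking protein for kinases and small-GTPase regulators at the same plaques. Zyxin moves onto tensed actin bundles and brings VASP, which promotes the growth of actin filaments, while alpha-actinins crosslink parallel filaments in stress fibres and filamins crosslink filaments into networks. Matrix stiffness raises the tension on these links in fibroblasts. The comparisons ask how the transcripts of these proteins differed between stiff and soft gels in each genotype, whether that difference itself differed between genotypes (the interaction), and how Cav1KO and WT cells differed on each gel.

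Values are CPM, reads scaled by the authors to a common library size with TMM factors, and each rests on 17089836 to 19944952 reads per library. The targeted gene matched the labels, with Cav1 between 949.8 and 1157 CPM in WT cells and between 0.0523 and 0.411 CPM in Cav1KO cells. Of 10 fibroblast markers, 8 were listed (Thy1 and Lum were not analysed here), and their summed level was 9001 to 9187 CPM in WT stiff, 11453 to 11650 in WT soft, 4318 to 5413 in Cav1KO stiff and 12976 to 13032 in Cav1KO soft. No epithelial, endothelial or striated muscle marker was listed, and of 6 macrophage markers Cd68 alone was, at 0.552 to 4.55 CPM. Of 5 smooth muscle markers, 4 were listed, with summed levels of 1187 to 1318 CPM in WT stiff, 799.5 to 931.8 in WT soft, 420.7 to 451.7 in Cav1KO stiff and 603.4 to 627.9 in Cav1KO soft. Single markers did not all follow their sum. Acta2 was at 966 and 1093 CPM in WT stiff, and 417 and 398 in Cav1KO stiff. Tagln was at 151 and 167 CPM in WT stiff, 2.18 and 2.90 in Cav1KO stiff, and 1.15 and 1.65 in Cav1KO soft. Col1a1 was at 2612 and 2515 CPM in WT stiff, and 2035 and 2273 in WT soft. Col1a2 was at 1322 and 1321 CPM in WT stiff, and 2190 and 1959 in WT soft. In bulk RNA a lower share of cells that express a gene and less of its RNA per cell cannot be told apart.

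Replicate libraries differed in a way that followed transcript length, and several of the 9 genes have long transcripts. Over the 824 tested genes with transcripts over 7500 bases, the median of replicate 2 minus replicate 1 on the log2(CPM + 1) scale was -0.25 for WT stiff and -0.33 for Cav1KO stiff, against 0.12 for WT soft and -0.07 for Cav1KO soft. The same genes had a median log2 fold change of 0.16 for stiff against soft gels in WT cells and -0.45 in Cav1KO cells. Tln1 differed between replicates by -0.65 in WT stiff, 0.46 in WT soft and -0.95 in Cav1KO stiff, and Flnc by -0.51, 0.46 and -0.89. Actn4, whose transcript of 3877 bases is far shorter, differed by -0.41, 0.51 and -0.65, whereas the median of its length class (3000 to 5000 bases) differed by -0.016, -0.003 and -0.054. For Zyx, Vasp and Pxn the difference was at most 0.17 in size in every group. Each result of the 9 genes is therefore also given after length centring, in which the median of genes of like transcript length was set equal in every library, wherever that changed a call or moved a called value by over 1.5 times, and for related genes the counts are given after it. The part of this length pattern in the results was not tested beyond these values.

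**Figure D1:**
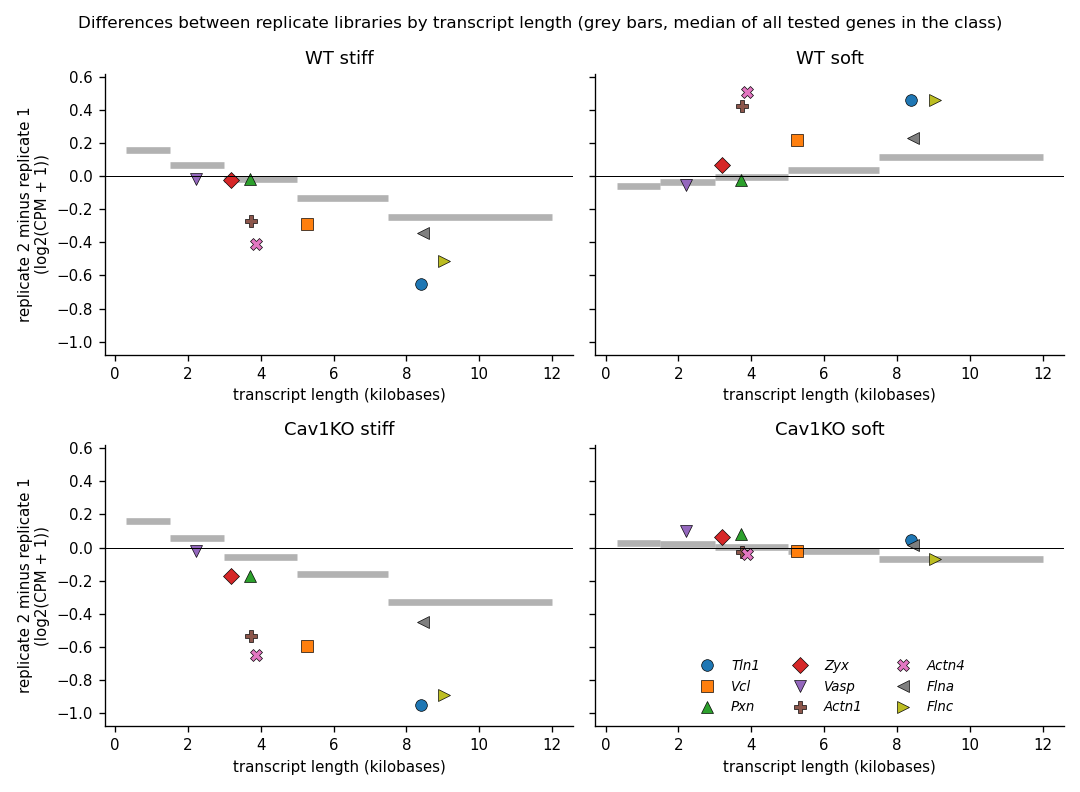
Difference between the 2 replicate libraries of each group (replicate 2 minus replicate 1, log2(CPM + 1)) against transcript length in kilobases, with a marker per gene and grey bars for the median of all tested genes in 5 length classes, drawn to 12 kilobases. Tln1 and Flnc lie furthest below 0 in WT stiff and Cav1KO stiff, the actinins and Vcl lie beyond the median of their class, and in Cav1KO soft all genes lie near 0.

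On stiff gels, WT cells held more transcript of 6 of the 9 genes than on soft gels, and 0 were lower past the threshold (limma, Benjamini-Hochberg adjusted p under 0.05 over all 12494 genes). The 6 were Tln1, Zyx, Actn1, Actn4, Flna and Flnc. Among all genes tested, 22.1% were higher and 26.3% lower on stiff gels in WT cells. The median log2 fold change of the 9 genes was 0.58, against -0.02 over all genes. Pxn alone was lower at an unadjusted p under 0.05, and edgeR and DESeq2 on the recovered reads called 6 and 5 of the 9 higher and 0 lower. Without WT stiff replicate 1 or without WT soft replicate 1, 1 of the 9 passed, which was Zyx. In Cav1KO cells 0 of the 9 were higher on stiff gels and 3 were lower (Tln1, Vcl and Flnc), against 27.9% of all genes higher and 28.2% lower. The share of the 9 that was lower was thus near that of all genes. Here the median of the 9 was -0.26, against -0.02 over all genes, and 0 were higher at an unadjusted p under 0.05 or by edgeR or DESeq2. After length centring 1 was higher (Flna) and 2 lower, and after median centring 1 was higher (Zyx) and 2 lower. Without Cav1KO stiff replicate 1 the number lower was 6, and without Cav1KO stiff replicate 2 or either Cav1KO soft replicate it was 1. The stiffness effect of WT cells exceeded that of Cav1KO cells in 4 genes by the interaction (Tln1, Vcl, Actn1 and Flnc) and fell below it in 0, against 4.47% and 6% of all genes. At an unadjusted p under 0.05 the interaction of 6 of the 9 genes was positive and of 0 negative, and edgeR called 4 and DESeq2 5, all positive. The shares of all genes are for adjusted p in the limma fit of all 8 libraries. None is given for unadjusted counts, under other processing such as length centring, or with libraries left out. Those counts therefore cannot be set against them. The interaction passed for 0 genes without WT stiff replicate 1, WT soft replicate 1 or either Cav1KO soft replicate (5, 5, 5 and 6 at an unadjusted p under 0.05), for 1 without WT soft replicate 2, for 2 without Cav1KO stiff replicate 2 and for 6 without Cav1KO stiff replicate 1. Without the 2 libraries in which long transcripts were lowest (WT soft replicate 1 and Cav1KO stiff replicate 2, left out together after the data were seen), 5 genes passed for stiffness in WT cells, 1 in Cav1KO cells and 0 for the interaction, of which 4 had an unadjusted p under 0.05.

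Between genotypes on stiff gels, 5 of the 9 genes were lower in Cav1KO than in WT cells (Tln1, Vcl, Actn1, Flna and Flnc) and 1, Zyx, was higher. Of all genes tested, 26.6% were lower and 25% higher in this comparison. On soft gels, Zyx and Vcl were higher in Cav1KO cells and 0 were lower, against 24.1% and 29.9% of all genes. Pxn alone was lower there at an unadjusted p under 0.05, and edgeR and DESeq2 also called 2 higher and 0 lower. Without any 1 of the 4 soft-gel libraries, 1 of the 9 passed on soft gels, and without either Cav1KO stiff library 4 did. The median log2 fold change of the 9 genes was -0.79 on stiff and 0.30 on soft gels, against -0.03 over all genes in both. The 5 comparisons share libraries, so their values for a gene are not independent of each other.

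**Figure D2:**
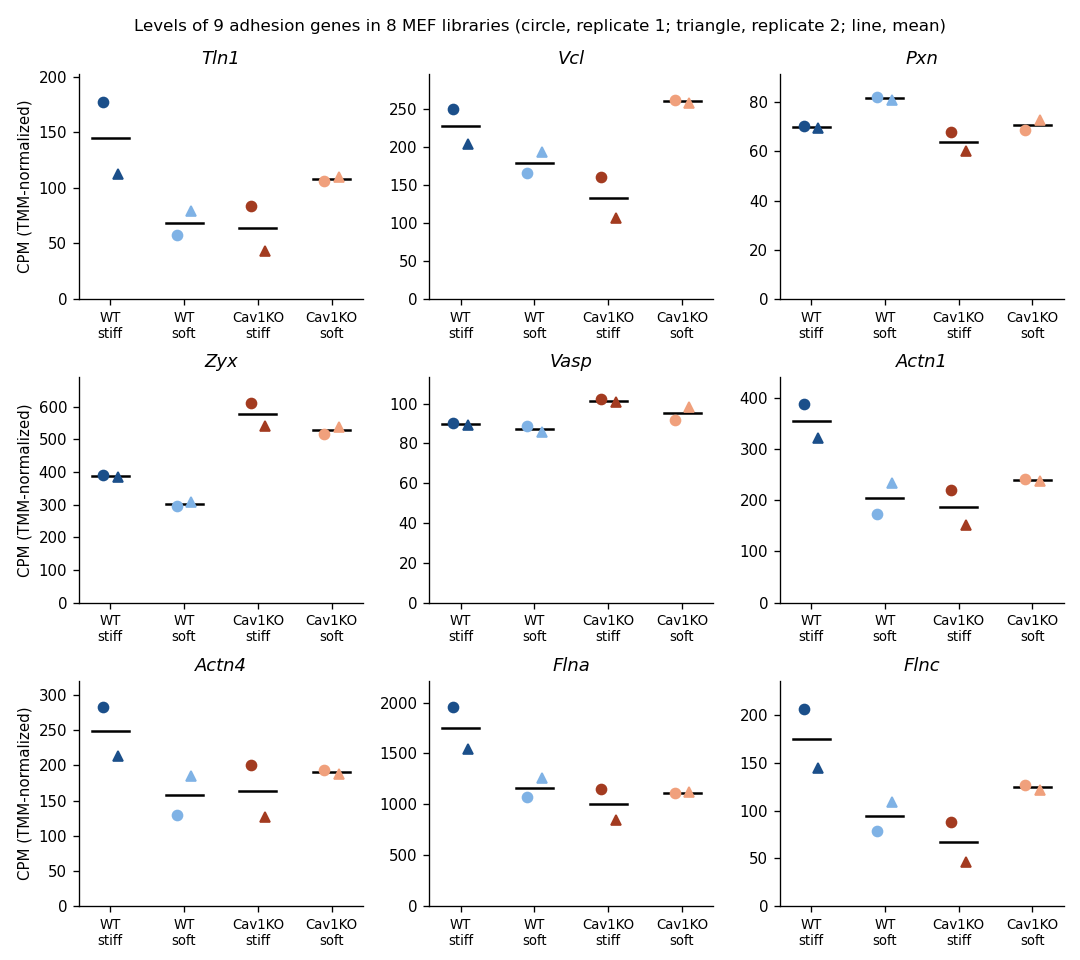
CPM (TMM-normalized) of each of the 9 genes in the 8 libraries, by group, with circles for replicate 1, triangles for replicate 2 and a line at the group mean, and each axis starting at 0. WT stiff holds the highest mean for Tln1, Actn1, Actn4, Flna and Flnc, Cav1KO soft the highest for Vcl, and both Cav1KO groups lie above both WT groups for Zyx and Vasp.

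Tln1 (ENSMUSG00000028465, GRCm38 chr4:43531519-43562691, minus strand) encodes talin 1, the protein that couples the integrin tail to actin. It was at 178 and 113 CPM in WT stiff, 57.5 and 79.4 in WT soft, 84.2 and 43.0 in Cav1KO stiff, and 106 and 110 in Cav1KO soft. WT stiff was above every other group, and WT soft and Cav1KO stiff overlapped. The WT level was 2.08 times as high on stiff as on soft gels (log2 fold change 1.06, SE 0.31, limma adjusted p = 0.0214), and the Cav1KO level was lower on stiff gels (log2 fold change -0.83, SE 0.31, adjusted p = 0.0465). The interaction was 1.89 (SE 0.44, adjusted p = 0.0373). On stiff gels Tln1 was lower in Cav1KO than in WT cells by a log2 fold change of -1.22 (SE 0.31, adjusted p = 0.0104). On soft gels it was 0.67 higher in Cav1KO cells, which did not pass (adjusted p = 0.0976).

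Leaving out 1 library changed several of these Tln1 calls, and some of those fits left the log2 fold change nearly as it was. Without either WT soft library, for example, the Cav1KO stiffness effect stayed at -0.83. The WT stiffness call was lost without WT stiff replicate 1 (0.73, adjusted p = 0.140) and without WT soft replicate 1 (0.83, adjusted p = 0.153). The Cav1KO stiffness effect moved to -0.36 (adjusted p = 0.284) without Cav1KO stiff replicate 2 and to -1.31 without replicate 1 of that group. It also missed the threshold without either WT soft library (adjusted p = 0.0615 without replicate 1 and 0.0613 without replicate 2), without either Cav1KO soft library (0.130 and 0.144), after length centring (-0.40, adjusted p = 0.0952) or median centring (adjusted p = 0.0526), with no mean-variance trend (0.0718), and by edgeR (0.0619) and DESeq2 (0.121). The interaction stayed positive but missed the threshold without WT stiff replicate 1 (1.56, adjusted p = 0.132), WT soft replicate 1 (1.66, 0.124) or replicate 2 (2.12, 0.0654), Cav1KO stiff replicate 2 (1.41, 0.0602), and Cav1KO soft replicate 1 (1.91, 0.135) or replicate 2 (1.87, 0.117), and with no mean-variance trend (adjusted p = 0.0601). The genotype call on stiff gels was lost without WT stiff replicate 1 (-0.89, adjusted p = 0.0786) and moved to -0.74 without Cav1KO stiff replicate 2, while that on soft gels passed without Cav1KO stiff replicate 1 or 2 (0.67, adjusted p = 0.0227 and 0.0231).

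Vcl (ENSMUSG00000021823, chr14:20929398-21033676, plus strand) encodes vinculin, which strengthens the talin link under force. Its level was 251 and 205 CPM in WT stiff, 166 and 194 in WT soft, 161 and 106 in Cav1KO stiff, and 262 and 259 in Cav1KO soft. The 4 groups did not overlap, with Cav1KO soft highest and Cav1KO stiff lowest. In Cav1KO cells Vcl on stiff gels was at 0.504 times its level on soft gels (log2 fold change -0.99, SE 0.18, limma adjusted p = 0.00177), and this call held without each library in turn. The WT effect was 0.33 (95% interval -0.08 to 0.75, adjusted p = 0.156), and it passed after length centring (0.33, adjusted p = 0.0465) and without Cav1KO stiff replicate 1 or 2 (0.33, adjusted p = 0.0312 and 0.0317). The interaction was 1.32 (SE 0.25, adjusted p = 0.0239). Against WT cells, Cav1KO cells held less Vcl on stiff gels (-0.79, SE 0.18, adjusted p = 0.00622) and more on soft gels (0.54, SE 0.18, adjusted p = 0.0332).

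The interaction of Vcl missed the threshold without WT stiff replicate 1 (1.18), and without WT soft replicate 1 (1.21) or replicate 2 (1.44). The same held without Cav1KO soft replicate 1 (1.31) or replicate 2 (1.34). The difference on soft gels missed the threshold without WT soft replicate 1 (0.42) or replicate 2 (0.65). It also did so without Cav1KO soft replicate 1 (0.52) or replicate 2 (0.55), and with no mean-variance trend (limma adjusted p = 0.0578). The difference on stiff gels stayed called at -0.49 (adjusted p = 0.0181) without Cav1KO stiff replicate 2. Of the 60-nt windows of the Vcl transcript, 39.1% also lie in Ap3m1, the neighbour on the opposite strand (chr14:21031442-21052508) that overlaps its 3′ end. The library kit does not mark strand, so reads from the overlap cannot be told apart and Vcl is uncertain to that extent. Ap3m1, which encodes an adaptor-complex subunit for vesicle traffic, was at 74.0 and 74.1 CPM in WT stiff, 50.6 and 53.5 in WT soft, 68.3 and 79.0 in Cav1KO stiff, and 58.4 and 55.5 in Cav1KO soft. It was higher on stiff gels in both genotypes (log2 fold change 0.50 in WT and 0.36 in Cav1KO cells, limma adjusted p = 0.00205 and 0.00813), whereas Vcl was lower on stiff gels in Cav1KO cells.

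The promoters of Vcl, Zyx and Flnc are shown because these 3 genes had different patterns: Vcl was highest in Cav1KO soft, Zyx in both Cav1KO groups and Flnc in WT stiff. Each sequence is the 250 bases before the RefSeq start site in GRCm38.p6, on the gene's own strand, and capitals mark matches on either strand to a CArG box, the serum response factor motif, to GGAATG, the TEAD motif, or to TGANTCA, the AP-1 motif. The windows lie at chr14:20929148-20929397 (Vcl, plus strand), chr6:42349578-42349827 (Zyx, plus strand) and chr6:29433006-29433255 (Flnc, plus strand, the second of its 2 listed starts).
Vcl: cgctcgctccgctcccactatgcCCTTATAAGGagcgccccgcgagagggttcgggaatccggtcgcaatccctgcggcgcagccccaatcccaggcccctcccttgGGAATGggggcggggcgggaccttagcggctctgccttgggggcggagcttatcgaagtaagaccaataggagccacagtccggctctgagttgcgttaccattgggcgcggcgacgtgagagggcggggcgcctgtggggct
Zyx: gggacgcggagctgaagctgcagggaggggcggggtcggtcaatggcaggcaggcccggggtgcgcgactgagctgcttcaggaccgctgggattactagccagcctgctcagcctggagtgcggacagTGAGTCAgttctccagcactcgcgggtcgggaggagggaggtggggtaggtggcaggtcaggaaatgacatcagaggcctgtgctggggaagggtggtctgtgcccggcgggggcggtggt
Flnc: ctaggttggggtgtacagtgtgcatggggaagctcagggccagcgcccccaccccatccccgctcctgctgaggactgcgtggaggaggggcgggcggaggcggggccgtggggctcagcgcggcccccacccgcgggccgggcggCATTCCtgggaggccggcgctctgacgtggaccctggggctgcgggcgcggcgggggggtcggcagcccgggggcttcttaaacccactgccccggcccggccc
The CArG box of Vcl began 227 bases before its start, and 1.47% of 32851 RefSeq promoter windows of this length held such a box. A GGAATG match began 143 bases before the start of Vcl and 104 before that of Flnc, and Actn4 and Flna each held one as well, against 12.6% of all windows. TGANTCA occurred in Zyx and Actn4, against 6.75% of all windows. None of these matches overlapped another. By the gene coordinates given in this report, the whole Flna window and part of the Zyx window, with its TGANTCA match, lie within the gene. Parts of the Tln1, Actn1 and Actn4 windows do as well. The windows of Actn1, Tln1 and Vasp held none of these 3 motifs, nor did the window before the other start of Flnc, and Pxn was not among the promoters used here. GGGCGG, the Sp1 motif, was found in all of the matched genes except Tln1 and Vasp, against 32.7% of all windows. A match describes the letters of the window and shows no binding.

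Pxn (ENSMUSG00000029528, chr5:115506676-115555987, plus strand), the paxillin gene, moved little. Its level was 70.4 and 69.5 CPM in WT stiff, 82.1 and 80.8 in WT soft, 67.9 and 60.0 in Cav1KO stiff, and 68.7 and 72.9 in Cav1KO soft. WT soft was above the other 3 groups, and Cav1KO soft overlapped WT stiff. No comparison of Pxn passed: the log2 fold change of stiff against soft gels was -0.22 in WT cells (95% interval -0.40 to -0.03, limma adjusted p = 0.0559) and -0.15 in Cav1KO cells (-0.33 to 0.04, adjusted p = 0.160), and that of Cav1KO against WT cells was -0.13 on stiff (-0.32 to 0.06, adjusted p = 0.217) and -0.20 on soft gels (-0.39 to -0.01, adjusted p = 0.0674). The WT effect passed after length centring (-0.23, adjusted p = 0.0210), after quantile normalization (-0.27, 0.0224) and without Cav1KO stiff replicate 1 or 2 (-0.22, adjusted p = 0.0323 each). The Cav1KO effect passed after quantile normalization (-0.23, adjusted p = 0.0416) and without Cav1KO stiff replicate 1 (-0.23, 0.0493), which also turned the sign of the interaction (from -0.07 to 0.02), and the difference on soft gels passed without Cav1KO stiff replicate 1 or 2 (-0.20, adjusted p = 0.0397 and 0.0398).

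Zyx (ENSMUSG00000029860, chr6:42349630-42360213, plus strand) was the member with the clearest difference between genotypes. Zyxin senses tension on actin bundles and takes part in their repair. Its level was 390 and 385 CPM in WT stiff, 295 and 309 in WT soft, 612 and 542 in Cav1KO stiff, and 516 and 539 in Cav1KO soft. Every Cav1KO library was above every WT library, and the WT groups did not overlap. Cav1KO cells held 1.49 times the WT level on stiff gels (log2 fold change 0.57, SE 0.08, limma adjusted p = 0.000399) and 1.74 times on soft gels (0.80, SE 0.08, adjusted p = 5.2e-05). The WT level was 1.28 times as high on stiff as on soft gels (0.36, SE 0.08, adjusted p = 0.00571), and the Cav1KO effect was 0.13 (95% interval -0.05 to 0.30, adjusted p = 0.199). The interaction did not pass (0.23, 95% interval -0.02 to 0.48, adjusted p = 0.173), so the stiffness effect of Zyx was not shown to differ between genotypes. The 3 called differences of Zyx held without each library in turn and under every other setting tried. Its Cav1KO stiffness effect passed after median centring (0.21, adjusted p = 0.0441) and was negative after quantile normalization (-0.08).

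Vasp (ENSMUSG00000030403, chr7:19256929-19271817, minus strand), which encodes an actin filament elongation factor that binds zyxin, varied least. It was at 90.4 and 89.3 CPM in WT stiff, 88.8 and 85.7 in WT soft, 102 and 101 in Cav1KO stiff, and 91.7 and 98.3 in Cav1KO soft. The groups did not overlap, and the Cav1KO libraries were above the WT libraries. The log2 fold change of Cav1KO against WT cells was 0.17 on stiff gels (95% interval 0.01 to 0.33, limma adjusted p = 0.0686) and 0.12 on soft gels (-0.04 to 0.28, adjusted p = 0.174). The first passed after median centring (0.23, adjusted p = 0.0327) and the second after quantile normalization (0.20, adjusted p = 0.0351) and length centring (0.19, adjusted p = 0.0394). The stiffness effect was 0.04 in WT (-0.12 to 0.20, adjusted p = 0.646) and 0.09 in Cav1KO cells (-0.07 to 0.25, adjusted p = 0.287), and both turned negative after quantile normalization.

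**Figure D3:**
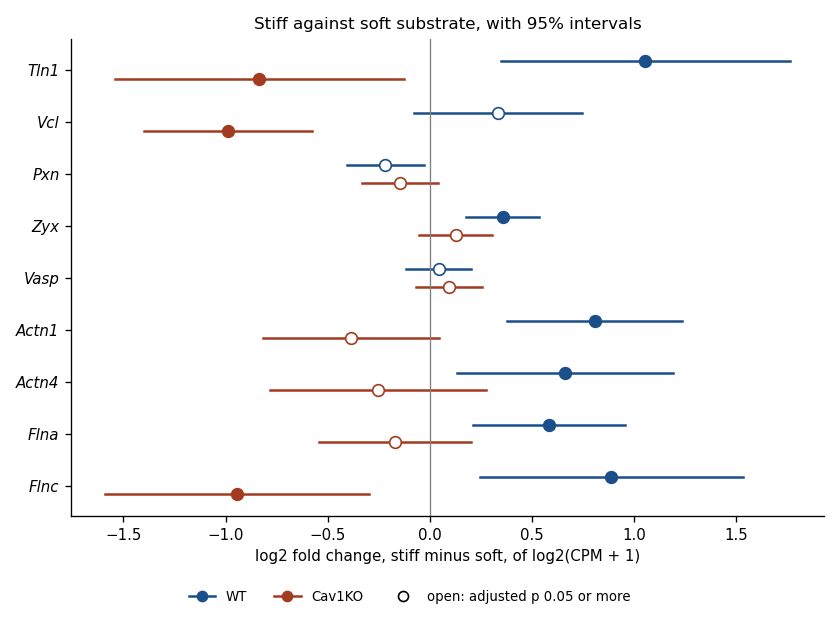
Log2 fold change of log2(CPM + 1), stiff minus soft gels, for each of the 9 genes in WT cells (blue) and Cav1KO cells (red), with bars for the 95% interval of the limma fit, filled circles for an adjusted p under 0.05 and open circles for the others. Tln1, Vcl, Actn1, Actn4, Flna and Flnc lie to the right of 0 in WT and to the left of 0 in Cav1KO cells, whereas Pxn, Zyx and Vasp lie on the same side in both; Flna and Actn4 in Cav1KO cells moved to the right of 0 without Cav1KO stiff replicate 2, Flna also after length centring, and after quantile normalization Zyx in Cav1KO and Vasp in both lay to the left.

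Actn1 (ENSMUSG00000015143, chr12:80167547-80260371, minus strand) encodes alpha-actinin 1, a crosslinker of stress fibres that also binds vinculin and zyxin. Its level was 388 and 322 CPM in WT stiff, 174 and 234 in WT soft, 220 and 152 in Cav1KO stiff, and 241 and 237 in Cav1KO soft. WT stiff was above every other group, and WT soft and Cav1KO stiff overlapped. In WT cells Actn1 was 1.75 times as high on stiff as on soft gels (log2 fold change 0.81, SE 0.19, limma adjusted p = 0.00783). In Cav1KO cells the effect was -0.39 (95% interval -0.82 to 0.04, adjusted p = 0.112), and the interaction was 1.19 (SE 0.27, adjusted p = 0.0342). On stiff gels Actn1 was lower in Cav1KO cells, at 0.519 times the WT level (-0.95, SE 0.19, adjusted p = 0.00312), a call that held without each library in turn. On soft gels the genotypes differed by 0.25 (95% interval -0.18 to 0.68, adjusted p = 0.298).

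The WT stiffness call of Actn1 was lost without WT stiff replicate 1 (0.67, adjusted p = 0.0560) or WT soft replicate 1 (0.59, 0.0724). Its interaction missed the threshold without WT stiff replicate 1 (1.06, adjusted p = 0.128), WT soft replicate 1 (0.98, 0.111), Cav1KO stiff replicate 2 (0.93, 0.0623), Cav1KO soft replicate 1 (1.18, 0.135) or Cav1KO soft replicate 2 (1.21, 0.111), and with no mean-variance trend (adjusted p = 0.0583). The Cav1KO stiffness effect passed without Cav1KO stiff replicate 1 (-0.65, adjusted p = 0.0111), and by quantile normalization (-0.53, adjusted p = 0.0451) and DESeq2 on recovered reads (-0.37, adjusted p = 0.0448). Of the 60-nt windows of Actn1, 9.39% are shared with Actn4 or with the antisense genes Gm47766 and Gm47767.

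Actn4 (ENSMUSG00000054808, chr7:28893248-28962340, minus strand), the gene of the other non-muscle alpha-actinin, was also highest in WT stiff, with smaller differences. It was at 283 and 213 CPM in WT stiff, 130 and 185 in WT soft, 200.02 and 127 in Cav1KO stiff, and 193 and 188 in Cav1KO soft. WT stiff was above the other groups, and Cav1KO stiff overlapped both soft groups. In WT cells Actn4 was 1.58 times as high on stiff as on soft gels (log2 fold change 0.66, SE 0.23, limma adjusted p = 0.0434). That call was lost without WT stiff replicate 1 (0.46, adjusted p = 0.230), WT soft replicate 1 (0.41, 0.283), Cav1KO soft replicate 1 (0.66, 0.0663) or Cav1KO soft replicate 2 (0.66, 0.0664), and by quantile normalization (0.61, 0.0670), DESeq2 (0.66, 0.0819) or a fit with no mean-variance trend (0.66, 0.0698). It was also lost with the replicate block (0.66, adjusted p = 0.0524) and without both WT soft replicate 1 and Cav1KO stiff replicate 2 (0.41, 0.0838). The Cav1KO effect was -0.26 (95% interval -0.78 to 0.27, adjusted p = 0.378), reached -0.58 (adjusted p = 0.0444) without Cav1KO stiff replicate 1, and was 0.07 without replicate 2 of that group.

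The interaction of Actn4 was 0.92 (95% interval 0.17 to 1.66, limma adjusted p = 0.0927) and passed without Cav1KO stiff replicate 1 (1.24, adjusted p = 0.0163). On stiff gels the difference between genotypes was -0.62 (95% interval -1.15 to -0.09, adjusted p = 0.0511). It passed after length centring (-0.56, adjusted p = 0.0465) and without WT stiff replicate 2 (-0.82, adjusted p = 0.0424), WT soft replicate 1 or 2 (-0.62, 0.0486 and 0.0483) or Cav1KO stiff replicate 1 (-0.94, 0.00613). On soft gels it was 0.30 (-0.23 to 0.82, adjusted p = 0.308). Of the windows of Actn4, 6.89% are shared with Actn1 or Capn12.

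Flna (ENSMUSG00000031328, chrX:74223461-74249820, minus strand) was the most abundant member, at a mean of 149 CPM per kilobase of transcript over the 8 libraries. Filamin A joins actin filaments at wide angles and binds integrin tails, where it competes with talin. Its level was 1957 and 1544 CPM in WT stiff, 1070.0 and 1255 in WT soft, 1154 and 845 in Cav1KO stiff, and 1107 and 1118 in Cav1KO soft. WT stiff lay above all others, and the other 3 groups overlapped in turn. In WT cells Flna was higher on stiff than on soft gels (log2 fold change 0.58, SE 0.16, limma adjusted p = 0.0175), a call lost without WT stiff replicate 1 (0.41, adjusted p = 0.115) or WT soft replicate 1 (0.47, 0.127). On stiff gels Cav1KO cells held 0.568 times the WT level (-0.82, SE 0.16, adjusted p = 0.00325), which held without each library in turn.

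In Cav1KO cells the stiffness effect of Flna was -0.17 (95% interval -0.54 to 0.20, limma adjusted p = 0.401), and its direction depended on the scaling. After length centring it was 0.26 and passed (adjusted p = 0.00908), and without Cav1KO stiff replicate 2 it was 0.05. The interaction was 0.76 (95% interval 0.23 to 1.28, adjusted p = 0.0653). It was 0.15 (adjusted p = 0.316) after length centring, and it passed with DESeq2 (adjusted p = 0.00357) and without WT stiff replicate 2 (0.93, adjusted p = 0.0498) or Cav1KO stiff replicate 1 (0.98, 0.0129). On soft gels the genotypes differed by -0.06 (95% interval -0.43 to 0.31, adjusted p = 0.781), by -0.41 after length centring, which passed (adjusted p = 0.000698), by 0.09 after quantile normalization and by 0.06 without WT soft replicate 2.

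Flnc (ENSMUSG00000068699, chr6:29433256-29461883, plus strand), the gene of filamin C, which is best known from striated muscle and is also made by cells under mechanical load, had a pattern close to that of Tln1. It was at 206 and 144 CPM in WT stiff, 78.9 and 109 in WT soft, 87.7 and 46.7 in Cav1KO stiff, and 127 and 121 in Cav1KO soft. WT stiff was highest and did not overlap Cav1KO soft, which came next, and WT soft and Cav1KO stiff overlapped. Flnc was 1.85 times as high on stiff as on soft gels in WT cells (log2 fold change 0.89, SE 0.28, limma adjusted p = 0.0300) and 0.520 times in Cav1KO cells (-0.94, SE 0.28, adjusted p = 0.0198). Its interaction was 1.83 (SE 0.40, adjusted p = 0.0322). On stiff gels Cav1KO cells held 0.375 times the WT level (-1.41, SE 0.28, adjusted p = 0.00317), the lowest ratio among the 9 genes, and this call held without each library in turn. On soft gels the difference was 0.42 (95% interval -0.23 to 1.06, adjusted p = 0.241).

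The WT stiffness call of Flnc was lost without WT stiff replicate 1 (0.63, adjusted p = 0.175) or WT soft replicate 1 (0.66, 0.198), and with no mean-variance trend (0.0504). The Cav1KO effect was -0.50 (adjusted p = 0.101) without Cav1KO stiff replicate 2, missed the threshold without Cav1KO soft replicate 1 (-0.91, 0.0860) or replicate 2 (-0.98, 0.0674), and was -0.51 (adjusted p = 0.0220) after length centring. The interaction missed it without WT stiff replicate 1 (1.57, adjusted p = 0.118), WT soft replicate 1 (1.60, 0.113) or replicate 2 (2.06, 0.0568), and Cav1KO soft replicate 1 (1.797, 0.131) or replicate 2 (1.87, 0.106), and with no mean-variance trend (0.0547). Without both Cav1KO stiff replicate 2 and WT soft replicate 1, the interactions were 1.18 for Tln1, 0.92 for Vcl, 0.71 for Actn1 and 1.15 for Flnc (adjusted p = 0.142, 0.0639, 0.102 and 0.102).

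**Figure D4:**
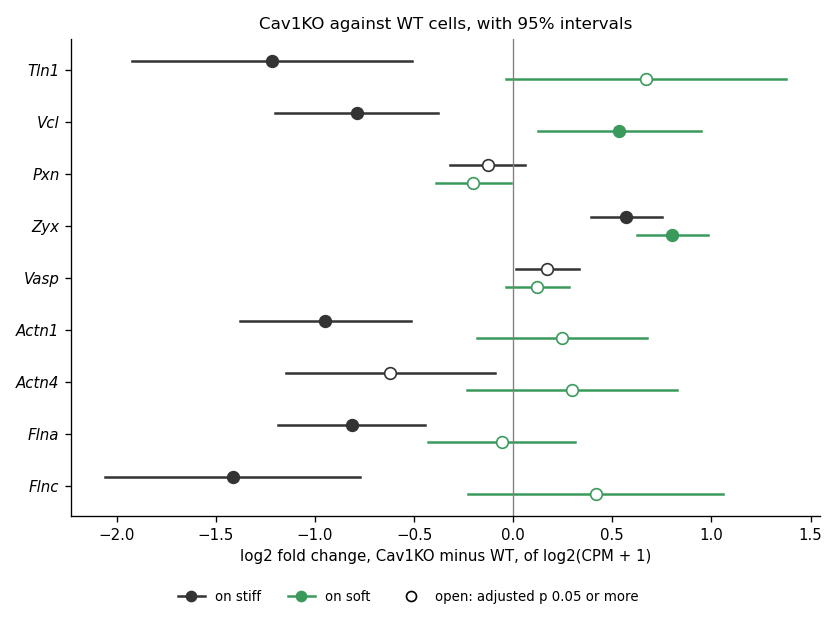
Log2 fold change of log2(CPM + 1), Cav1KO minus WT cells, for each of the 9 genes on stiff gels (black) and soft gels (green), with bars for the 95% interval of the limma fit, filled circles for an adjusted p under 0.05 and open circles for the others. Zyx lies to the right of 0 on both gels, and Tln1, Vcl, Actn1, Actn4 and Flnc lie to the left on stiff and to the right on soft gels.

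The balance between the 2 actinins was followed as a description with no test. Actn1 took 59.0% ± 1.65 (SD, n = 2) of the summed Actn1 and Actn4 CPM in WT stiff against 53.4% ± 1.40 in Cav1KO stiff, and 56.5% ± 1.02 in WT soft against 55.6% ± 0.174 in Cav1KO soft. The 2 actinins together were at 672 and 535 CPM in WT stiff, 304 and 419 in WT soft, 420 and 279 in Cav1KO stiff, and 435 and 425 in Cav1KO soft, so their sum differed by more than their proportions. Per kilobase of transcript and over all libraries, the order of levels was Flna (149), Zyx (141), Actn1 (65.9), Actn4 (49.0), Vasp (42.2), Vcl (38.1), Pxn (19.3), Flnc (12.7) and Tln1 (11.5 CPM per kilobase). Actn3, an actinin gene of fast muscle fibres, was at 0.219 to 2.57 CPM.

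**Figure D5:**
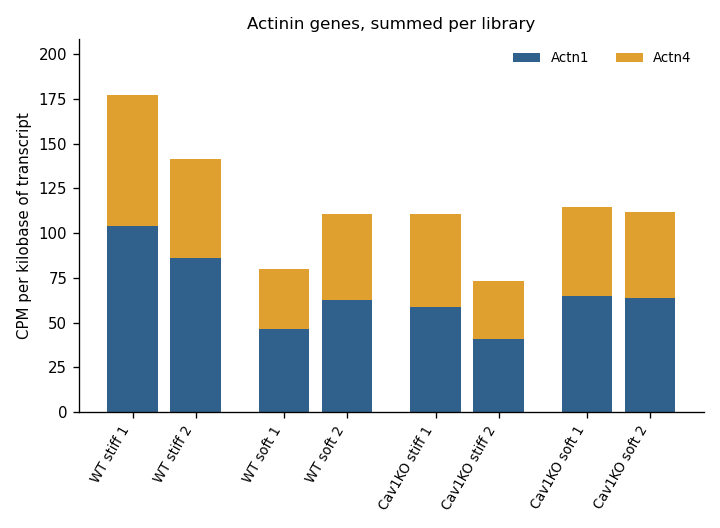
CPM per kilobase of transcript of Actn1 (lower part) and Actn4 (upper part), stacked per library, with the axis starting at 0. Both WT stiff libraries have taller bars than the other 6 libraries, and the bars of Cav1KO soft are nearly equal in height.

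Lists of genes that act beside these 9 in adhesions did not share 1 direction of stiffness effect in WT cells. Of 16 tested linkers and adaptors, from a list of 22 (talin 2, kindlins, the ILK complex, tensins, KANK and SORBS proteins and paxillin relatives), 4 were higher and 5 lower on stiff gels in WT cells, and 0 were higher and 11 lower in Cav1KO cells, where 1 was higher at an unadjusted p under 0.05 and edgeR and DESeq2 called 0. The shares of all genes tested were 22.1% and 26.3% for WT, against 27.9% and 28.2% for Cav1KO cells. The interaction passed for 7 of the 16, all with the higher effect in WT cells, against 4.47% of all genes. That number was 5 by edgeR, 3 with no trend, 3 without WT soft replicate 2, 1 without Cav1KO soft replicate 1, and 2 without WT stiff replicate 1, WT soft replicate 1, Cav1KO stiff replicate 2 or Cav1KO soft replicate 2. Without both WT soft replicate 1 and Cav1KO stiff replicate 2 it was 1. In WT cells 2 were higher and 3 lower without WT stiff replicate 1, and 2 and 2 without WT soft replicate 1. After length centring 4 were higher and 6 lower in WT cells, 0 and 12 in Cav1KO cells, and the interaction passed for 8. Tln2, the talin paralog, was at 6.09 ± 2.40 CPM (SD, n = 2) in WT stiff and 3.88 ± 1.05 in WT soft, against 3.79 ± 1.72 in Cav1KO stiff and 12.4 ± 0.474 in Cav1KO soft (interaction 2.04, SE 0.42, limma adjusted p = 0.0294). Tns3, a tensin that links integrins to actin, was at 114 ± 6.33, 82.3 ± 1.31, 58.5 ± 8.36 and 98.4 ± 1.22 CPM in the same order (interaction 1.21, adjusted p = 0.00450). Parvb, a parvin of the ILK complex, was 0.90 higher on stiff gels in WT cells (adjusted p = 0.000544). Between genotypes, 9 of the 16 were lower and 2 higher in Cav1KO cells on stiff gels, against 26.6% and 25% of all genes. The counts on soft gels were 7 and 5, against 29.9% and 24.1%.

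Of 20 adhesion kinases and scaffolds (FAK, Src and PAK kinases, p130Cas, Crk, DOCK and GIT proteins), 9 were higher and 1 lower on stiff gels in WT cells, 3 were higher and 4 lower in Cav1KO cells, and 0 passed the interaction in limma. At an unadjusted p under 0.05 the interaction of 10 of the 20 passed, 8 positive and 2 negative. No share of all genes is given at this threshold. By edgeR 0 were called and by DESeq2 1. Among all genes, the shares higher and lower were 22.1% and 26.3% for WT, 27.9% and 28.2% for Cav1KO, and 4.47% and 6% for the interaction. Without Cav1KO stiff replicate 1 the interaction passed for 9 of the 20, and the unadjusted count of 10 was 4 without WT stiff replicate 1, Cav1KO stiff replicate 2 or Cav1KO soft replicate 2 and 5 without WT soft replicate 1 or Cav1KO soft replicate 1. In WT cells 5 were higher and 0 lower without WT stiff replicate 1, and 4 and 0 without WT soft replicate 1. In Cav1KO cells 4 were higher and 1 lower without Cav1KO stiff replicate 2, 3 and 2 without Cav1KO soft replicate 1, and 3 and 1 without Cav1KO soft replicate 2. After length centring 6 were higher and 3 lower in Cav1KO cells, and 9 and 2 in WT cells. The interaction then passed for 1 in each direction. No share of all genes is given after length centring, so these counts cannot be set against one. Ptpn11, the phosphatase SHP2, was at 196 ± 5.62 CPM (SD, n = 2) in WT stiff and 137 ± 2.80 in WT soft (log2 fold change 0.52, limma adjusted p = 0.00111). Dock1, a Rac activator, was 0.57 lower on the log2 scale on stiff gels in Cav1KO cells (34.3 ± 8.15 against 50.6 ± 2.09 CPM, adjusted p = 0.0214). On stiff gels 11 of the 20 were lower and 1 higher in Cav1KO than in WT cells, and on soft gels 8 were lower and 3 higher, against 26.6% and 25% of all genes on stiff and 29.9% and 24.1% on soft gels. After length centring 10 were lower and 3 higher on stiff gels.

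Of 22 tested zyxin relatives, Ena/VASP genes and other genes of stress fibres, from a list of 23, 3 were higher and 6 lower on stiff gels in WT cells, and 3 were higher and 10 lower in Cav1KO cells. The shares of all genes were 22.1% and 26.3% for WT, against 27.9% and 28.2% for Cav1KO. The interaction passed for 4 in each direction, against 4.47% higher in WT cells and 6% lower among all genes. It passed for 0 without WT stiff replicate 1, WT soft replicate 1 or either Cav1KO soft replicate (10, 9, 9 and 10 at an unadjusted p under 0.05), and for 0 without both WT soft replicate 1 and Cav1KO stiff replicate 2 (8 at an unadjusted p under 0.05). It passed for 1 without Cav1KO stiff replicate 2 and for 1 in each direction without WT soft replicate 2 or with no trend, and edgeR called 2 higher and 4 lower. Without Cav1KO stiff replicate 1 it passed for 7 higher and 4 lower. In WT cells 1 was higher and 5 lower without WT stiff replicate 1, and 1 and 4 without WT soft replicate 1. After length centring 2 were higher and 7 lower in WT cells, 4 and 12 in Cav1KO cells, and the interaction passed for 4 and 3. Between genotypes, 14 of the 22 were lower and 3 higher in Cav1KO than in WT cells on stiff gels, and 13 were lower and 4 higher on soft gels, against 26.6% and 25% of all genes on stiff and 29.9% and 24.1% on soft gels. After length centring 13 were lower and 5 higher on stiff gels, and 11 and 5 on soft gels. Lima1, which encodes the actin-bundling LIM protein EPLIN, was at 34.4 ± 8.25 CPM (SD, n = 2) in WT stiff and 49.9 ± 4.52 in WT soft, against 51.6 ± 18.8 in Cav1KO stiff and 177 ± 0.335 in Cav1KO soft (interaction 1.27, limma adjusted p = 0.0461). Csrp2, a LIM protein of actin bundles, was at 146 ± 18.1 and 290 ± 33.6 CPM in WT stiff and WT soft, and at 39.7 to 49.1 CPM in the 4 Cav1KO libraries. Pdlim1, whose product binds alpha-actinin, was at 39.4 and 42.0 CPM in WT stiff and 15.2 and 21.4 in WT soft, and at 0.118 CPM in 1 Cav1KO stiff library and 0 in the other 3 Cav1KO libraries. It is among the 4 genes counted with a higher effect in WT cells (interaction 1.05, limma adjusted p = 0.0389). At such Cav1KO levels no stiffness effect can be read, so this interaction reflects the WT effect alone.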

How the data were processed

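Poly(A) RNA of 8 MEF libraries was sequenced as single reads of 60 nt from unstranded libraries. The authors deposited TMM-normalized CPM, a signal in which each gene's read count is divided by its library's scaled size. The submitters' processing notes name CASAVA 1.8.2, cutadapt, RSEM 1.2.3 and GRCm38. All deposited values (100%) were whole multiples of 1 read within 0.05 reads, so reads were recovered for count tests, and depth was 17089836 to 19944952 reads. Libraries were grouped by genotype and gel in their labels. The 12494 genes that reached 1 CPM in 2 or more libraries entered a single limma 3.58.1 fit (R 4.3.3) of log2(CPM + 1) over the 4 groups with a mean-variance trend, no block and 4 residual degrees of freedom, two-sided, with Benjamini-Hochberg adjustment over all of them and a threshold of 0.05. On this scale the changes of low genes are understated. Coordinates and transcript lengths are from GENCODE M21 (GRCm38), matched for 12451 genes. Promoters are from RefSeq (GRCm38.p6), and the motifs were chosen after the values were seen.

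Alternatives were other pseudocounts (0.5 and 5), no filter, no trend, median centring, quantile normalization, edgeR 4.0.16 and DESeq2 1.42.0 on recovered reads, a replicate block, centring over 20 bins of transcript length, and each library left out. Shares of all genes past the threshold are those of the single limma fit at adjusted p. None is given for unadjusted counts or for these alternatives. The 9 genes and the related lists were chosen with earlier results of these data known. From each related list, genes named were drawn from the 3 with the largest change past the threshold in each stiffness comparison and in the interaction. Likeness of profiles was the root mean square difference of centred log2(CPM + 1) over the 8 libraries. Some genes that the naming rule covers, and values that need them, are not reported here.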

Additional observations from a re-analysis of the deposited data

Results flagged for a closer look

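The stiffness effect differed between genotypes by the interaction term of the limma fit in 4 of the 9 genes, each with a higher effect in WT cells. The difference on the log2(CPM + 1) scale was 1.89 for Tln1, 1.32 for Vcl, 1.19 for Actn1 and 1.83 for Flnc (adjusted p = 0.0373, 0.0239, 0.0342 and 0.0322), and after centring on transcript length it was 1.28, 1.11, 1.17 and 1.22 (adjusted p = 0.0208, 0.00773, 0.0196 and 0.0152). Each of the 4 missed the threshold when 1 of several single libraries was left out. Over the 824 tested genes with transcripts over 7500 bases, the class of Tln1 and Flnc, the median interaction was 0.52. It was 0.21 for transcripts of 5000 to 7500 bases, the class of Vcl. For those of 3000 to 5000 bases, the class of Actn1, it was 0.0004, and over all tested genes it was -0.07.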

How the results depend on the processing

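Under other processing the number of the 9 genes past the threshold stayed within 1.5 times its main value except as follows. In Cav1KO cells, where 3 passed for stiffness, 5 passed after quantile normalization and 1 without both WT soft replicate 1 and Cav1KO stiff replicate 2 (chosen after seeing the data). For the interaction, with 4 passed, 1 passed with no mean-variance trend, and without both libraries 0 passed in limma, with 4 at an unadjusted p under 0.05; edgeR called 4 and DESeq2 5 on all libraries. For genotype on soft gels, with 2 passed, 1 passed with no trend, 4 after length centring and 5 with the WT soft replicate numbers exchanged. With single libraries left out, the counts ranged from 1 to 8 for stiffness in WT, 1 to 6 for stiffness in Cav1KO, 0 to 6 for the interaction, 5 to 7 for genotype on stiff and 1 to 4 for genotype on soft gels. Where 0 interactions passed (without WT stiff replicate 1, WT soft replicate 1, or either Cav1KO soft replicate), 5, 5, 5 and 6 had an unadjusted p under 0.05; the lone library of a group was then assumed to vary like the others.

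Signs turned for Zyx stiffness in Cav1KO (-0.0792), Vasp stiffness in WT (-0.0115) and in Cav1KO (-0.0485), the Vasp interaction (0.037) and Flna genotype on soft gels (0.0858) after quantile normalization. After length centring, with or without the replicate block, signs turned for the Vasp interaction (0.0893) and Flna stiffness in Cav1KO (0.26). Without both libraries they turned for stiffness in Cav1KO of Actn4 (0.0679) and Flna (0.0527). With single libraries left out, ranges spanned 0 for the Pxn interaction (-0.16 to 0.0165), stiffness in Cav1KO of Actn4 (-0.58 to 0.0679) and Flna (-0.40 to 0.0527), and Flna genotype on soft gels (-0.17 to 0.0562). No value whose sign had turned passed, except that of Flna stiffness in Cav1KO after length centring. The cause was not tested. Per kilobase, Actn1 took 56.6% of actinin in Cav1KO soft.

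The labels do not say whether replicate numbers pair the libraries. Deviations of same-numbered libraries correlated from -0.367 (WT stiff with WT soft) to 0.415 (WT stiff with Cav1KO stiff). Replicate differences also followed transcript length, so these correlations cannot decide whether the numbers mark a pairing. With the replicate block, 5, 3, 4, 6 and 2 genes passed in the 5 comparisons, against 6, 3, 4, 6 and 2 without it, and the gene lost was Actn4 in WT cells (adjusted p = 0.0524). With the numbers of WT soft exchanged, a choice made after seeing the data, 8, 4, 6, 8 and 5 passed. With 2 libraries a group, precision was limited.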

Other observations

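The genes whose profiles over the 8 libraries were closest to each of the 9 were looked up among 10063 genes with a mean of at least 5 CPM, as a description with no test. For Tln1 they were Ckap5, a microtubule polymerase (root mean square difference 0.12 on the log2 scale), and Flnc (0.14). Actn1 stood at rank 24 from Tln1, Vcl at rank 101 and Zyx at rank 5265. Slk (0.11), a kinase of adhesion turnover, was among those closest to Flnc. Vcl was closest to Tnrc6c (0.07) and Magi3 (0.08), Actn1 to Eif3a (0.09) and Bms1 (0.11), Zyx to Puf60 and Gna12 (0.06 each), and Pxn to Rarg and Dvl2 (0.05 each). All profiles come from the same 8 libraries and carry their depth and transcript length differences.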
